A study of Mus musculus with 9 samples.

Results

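The mRNAs of 10 enzymes of glycolysis and lactate formation were followed in RIP-seq libraries of N2A cells: Hk2, Gpi1, Aldoa, Tpi1, Gapdh, Pgk1, Pgam1, Eno1, Pkm and Ldha, in the order in which the enzymes act. Every row of the deposited transcript table that carried one of these gene symbols was taken, which gave 91 transcripts of 140658, and the counts were summed per gene. The N2A line (Neuro-2A) derives from a mouse neuroblastoma. All cells, controls included, had been treated with 200 nM okadaic acid, a protein phosphatase inhibitor, for 2 h before lysis. The 9 libraries fall into 3 groups of 3: input RNA with no immunoprecipitation (IP), RNA recovered with control rabbit IgG (rIgG IP), and RNA recovered with anti-p-UPF1(S1116), an antibody to phosphorylated UPF1 (p-UPF1 IP). RNA was cleaved with RNase I and fragments of about 25 to 50 nt were sequenced. No untreated cells enter the comparisons.

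Glycolysis splits glucose into pyruvate in the cytosol and yields ATP and NADH, and lactate dehydrogenase then turns pyruvate into lactate and restores NAD+. Tumour-derived lines such as neuroblastoma cells commonly run this pathway at a high rate, and its mRNAs are among the abundant, stable housekeeping mRNAs of a cell. UPF1 is the RNA helicase at the centre of nonsense-mediated mRNA decay (NMD), which degrades mRNAs whose stop codon lies well upstream of an exon junction or, for some mRNAs, ahead of a long 3′ UTR. Phosphorylation marks UPF1 that is engaged in decay, so that RNA recovered with p-UPF1 is used to find mRNAs on which the pathway acts.

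The input libraries held 25184464 to 29857955 counts each, the libraries of the p-UPF1 IP 5312526 to 6246110, and those of the rIgG IP only 79010 to 474491. The 10 mRNAs together held 0.0468 to 0.0519% of the input counts, 0.0439 to 0.0557% of the rIgG IP counts and 0.0339 to 0.0384% of the p-UPF1 IP counts. A group of 3 libraries with a summed count of 0 allows a level of up to 0.0445 CPM for the input, 0.157 CPM for the p-UPF1 IP and 4.09 CPM for the rIgG IP, for counting error only (CPM is the TMM-scaled count relative to the size of the library). The rIgG IP libraries therefore limit every comparison in which they take part. Of 14 neuroblastoma and neuronal markers, 11 could be tested, and Nefl was among those with no count in any library. The markers summed to 784 to 849 CPM in the input, 425 to 736 CPM in the rIgG IP and 1293 to 1397 CPM in the p-UPF1 IP, most of it from Map1b. The 14 markers of glia, fibroblasts, endothelium, immune cells and muscle summed to 4.54 to 5.35 CPM, 0 to 8.03 CPM and 11.2 to 14.05 CPM in the same order, with Aqp4, Col3a1 and Myh1 at 0 throughout. Their part in the results was not tested. The labels do not say whether the libraries of a group came from separate cultures, so p-values measure the spread between these libraries, which may be technical.

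In the input, the level of each mRNA per kb of its main coding transcript placed Gapdh, which oxidises glyceraldehyde-3-phosphate, at the top and Hk2, the hexokinase that traps glucose in the cell, at the bottom. For this order, counts of genes with near-identical sequence were added to each member, for the reason given with Gapdh below. The top of the order rests on this: without copies Gapdh stood at 64.9 ± 17.4 CPM per kb, below Aldoa, and Eno1 at 6.36 ± 0.726 CPM per kb, with only Hk2 below it. Gapdh stood at 108 ± 1.64 CPM per kb (SD, n = 3). Eno1 followed at 73.1 ± 1.46 and Aldoa at 71.7 ± 3.77 CPM per kb, and the libraries of these neighbours overlapped. Ldha reached 61.2 ± 4.37 and Pkm 47.1 ± 2.41 CPM per kb. Pgam1 (22.9 ± 0.703), Pgk1 (20.8 ± 1.03), Gpi1 (19.5 ± 0.835) and Tpi1 (17.4 ± 0.275 CPM per kb) lay close together, and only the libraries of Pgk1 and Gpi1 overlapped among these neighbours. Hk2 stood far below them at 2.87 ± 0.190 CPM per kb. Bulk libraries cannot tell fewer cells with an mRNA from less mRNA per cell.

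**Figure D1:**
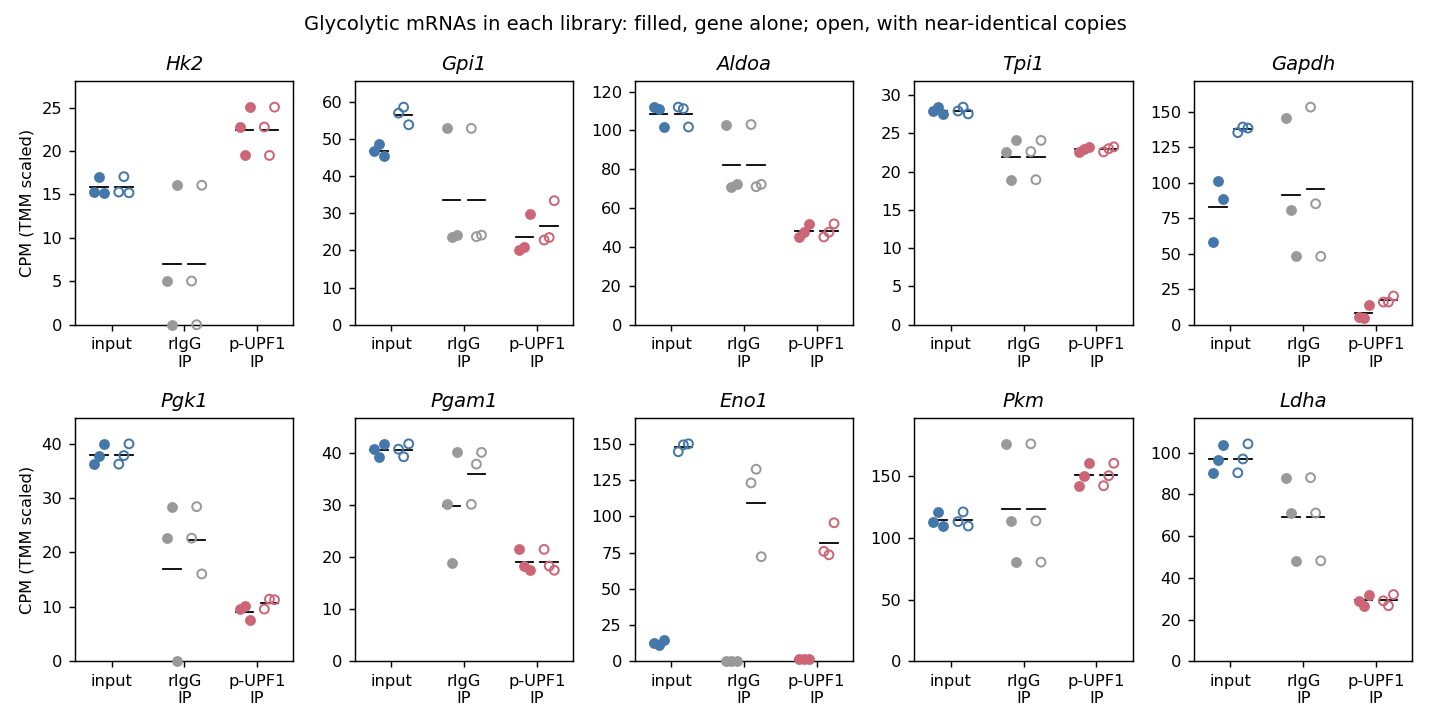
Level of each glycolytic mRNA in every library (vertical axis, CPM after TMM scaling, from 0) in the input, the rIgG IP and the p-UPF1 IP; filled points are the gene alone, open points the gene with its near-identical copies, and bars are means of 3 libraries. Hk2 and Pkm are higher in all p-UPF1 IP libraries than in any input library, the other 8 are lower, and Gapdh and Eno1 rise with their copies.

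The p-UPF1 IP was first compared with the input, the question being which mRNAs are recovered with p-UPF1 beyond their abundance. Of the 10 mRNAs, 8 were lower in the p-UPF1 IP and 2, Hk2 and Pkm, were higher (adjusted p under 0.05, edgeR's quasi-likelihood test with Benjamini-Hochberg adjustment over 16919 genes). In this comparison 35.7% of all genes tested were called lower and 26.3% higher. A log2 fold change under -1 was reached by 7 members (26.5% of all genes), and none passed the study's threshold for enrichment, a log2 fold change above 1 (17.3% of all genes). The study set that threshold on transcripts and also required a rise on UPF1 depletion, whereas here it is set on summed gene counts. Single transcript models of the members, some of which pass it, are described below. The median log2 fold change of the members was -1.16, against -0.42 for all genes tested. For every member the 3 p-UPF1 IP libraries lay wholly on one side of the 3 input libraries, as they did for 41.6% of all genes on the lower side and 28.4% on the higher side.

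The zero point of these fold changes depends on the scaling. With library totals in place of TMM the median over all genes moved from -0.42 to -0.01, and the members were then 2 higher and 7 lower, with 4 under -1. Tpi1 was the member that turned, from -0.31 to 0.09 (SE 0.09), and was no longer called (adjusted p = 0.361). The changes below are given on the TMM scale.

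Hk2 encodes hexokinase 2, which phosphorylates glucose in the first step. Its level was 15.3, 17.0 and 15.2 CPM in the input libraries and 22.8, 19.5 and 25.05 CPM in the p-UPF1 IP libraries. All p-UPF1 IP libraries were above all input libraries, and the log2 fold change was 0.47 (SE 0.10, adjusted p = 0.00245). Among all genes tested, 69.9% had a lower fold change than Hk2, the highest of the members.

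The next enzymes rearrange and split the hexose: Gpi1 isomerises glucose-6-phosphate, Aldoa cleaves fructose-1,6-bisphosphate, and Tpi1 interconverts the resulting triose phosphates. Gpi1 was at 46.7, 48.5 and 45.2 CPM in the input and at 20.1, 20.95 and 29.9 CPM in the p-UPF1 IP. Aldoa was at 112, 111 and 102 CPM in the input and at 45.2, 47.6 and 51.9 CPM in the p-UPF1 IP. Neither gene's libraries overlapped between the groups, and both were lower, with log2 fold changes of -1.01 (SE 0.13, adjusted p = 5.01e-05) for Gpi1 and -1.19 (SE 0.08, adjusted p = 3.20e-07) for Aldoa. Tpi1 was at 27.9, 28.4 and 27.5 CPM in the input and at 22.6, 23.0 and 23.2 CPM in the p-UPF1 IP. Its libraries scattered least of all members, so that its small log2 fold change of -0.31 (SE 0.07) passed the test (adjusted p = 0.00333). With 52.6% of all genes below it, Tpi1 sat near the middle of the transcriptome.

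Gapdh carries out the step that yields NADH and is widely used as a reference mRNA. Its level was uneven between replicates, at 58.2, 101 and 88.4 CPM in the input and at 5.51, 4.98 and 13.6 CPM in the p-UPF1 IP. The p-UPF1 IP libraries were still well below the input, with a log2 fold change of -3.38 (SE 0.32, adjusted p = 6.06e-06), the lowest of the members and below that of all but 12.2% of genes. Reads of Gapdh are shared with processed pseudogenes, copies of the mRNA scattered in the genome. In the transcript annotation, 105 other genes in the table held at least 10% of the 35-nt windows of the main Gapdh transcript, and 101 of them were annotated as pseudogenes. The most counted of these, Gm7336 (GRCm38, chr7:51746647-51747878), held 91.7% of the windows and was identical to Gapdh-201 over 1065 consecutive bases, which include the whole coding sequence of 1002 bases. A footprint from the start of the coding sequence therefore cannot be assigned to the gene or the pseudogene from its sequence, as the shared first 30 bases show (chr6:125165271-125165293 and chr6:125163430-125163436, minus strand, with the start codon in capitals).
Gapdh-201 and Gm7336-201: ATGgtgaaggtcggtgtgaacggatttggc

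Gm7336 took 1508, 604 and 992 counts in the input libraries, where Gapdh itself took 1283, 2166 and 2125, so that the library with the fewest Gapdh counts had the most for the pseudogene. Summed with all copies, Gapdh had 2987, 2975 and 3330 input counts and 90, 109 and 134 p-UPF1 IP counts. The replicates were then close together, and the log2 fold change was -3.01 (SE 0.09).

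Pgk1, the first ATP-forming enzyme, was at 36.2, 37.8 and 39.9 CPM in the input and at 9.60, 10.3 and 7.55 CPM in the p-UPF1 IP, a log2 fold change of -2.08 (SE 0.11, adjusted p = 1.02e-07). Pgam1, which moves the phosphate group of phosphoglycerate, was at 40.7, 39.3 and 41.8 CPM in the input and at 21.5, 18.3 and 17.5 CPM in the p-UPF1 IP, a log2 fold change of -1.12 (SE 0.09, adjusted p = 2.59e-06). Pgk1 thus stood lower than Pgam1 in the p-UPF1 IP although the levels in the input were similar. With its copies, chiefly the pseudogene Gm5537 (0, 8 and 25 counts in the p-UPF1 IP), Pgk1 was at -1.84 (SE 0.09).

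Eno1 encodes enolase 1, which forms phosphoenolpyruvate. Alone it had 279, 247 and 348 input counts, 11, 13 and 10 in the p-UPF1 IP and none in the rIgG IP, and its log2 fold change over input was -2.88 (SE 0.17, adjusted p = 2.38e-07). The near-identical gene Eno1b, annotated as protein-coding, shares 74.5% of the 35-nt windows of Eno1 and took most of the counts in the input, with 2785, 2461 and 3140 in input libraries against 128, 189 and 205 in p-UPF1 IP libraries. The pseudogene Gm4735 took 0, 402 and 0 counts in the input but 262, 284 and 406 in the p-UPF1 IP, more than Eno1 and Eno1b together in each p-UPF1 IP library. The sum of Eno1 and its copies was even across replicates, at 145, 149 and 150 CPM in the input and at 75.9, 73.6 and 95.7 CPM in the p-UPF1 IP. Its log2 fold change was -0.88 (SE 0.09), far closer to 0 than that of Eno1 alone. Summing near-identical copies left the calls of the members at 2 higher and 8 lower, but brought the number under -1 from 7 to 6.

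Pkm, the pyruvate kinase gene, was the second member above the input. Its level was 113, 121 and 109 CPM in the input and 142, 150 and 160 CPM in the p-UPF1 IP. The groups did not overlap, and the log2 fold change was 0.37 (SE 0.07, adjusted p = 9.79e-04), with 67.8% of all genes below it. Ldha, the lactate dehydrogenase subunit of glycolytic tissues, was at 89.97, 96.6 and 104 CPM in the input and at 29.0, 26.7 and 31.8 CPM in the p-UPF1 IP. Its log2 fold change of -1.76 (SE 0.09, adjusted p = 7.34e-08) was opposite in direction to that of Pkm, although the enzymes act in succession and both mRNAs were abundant in the input.

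**Figure D2:**
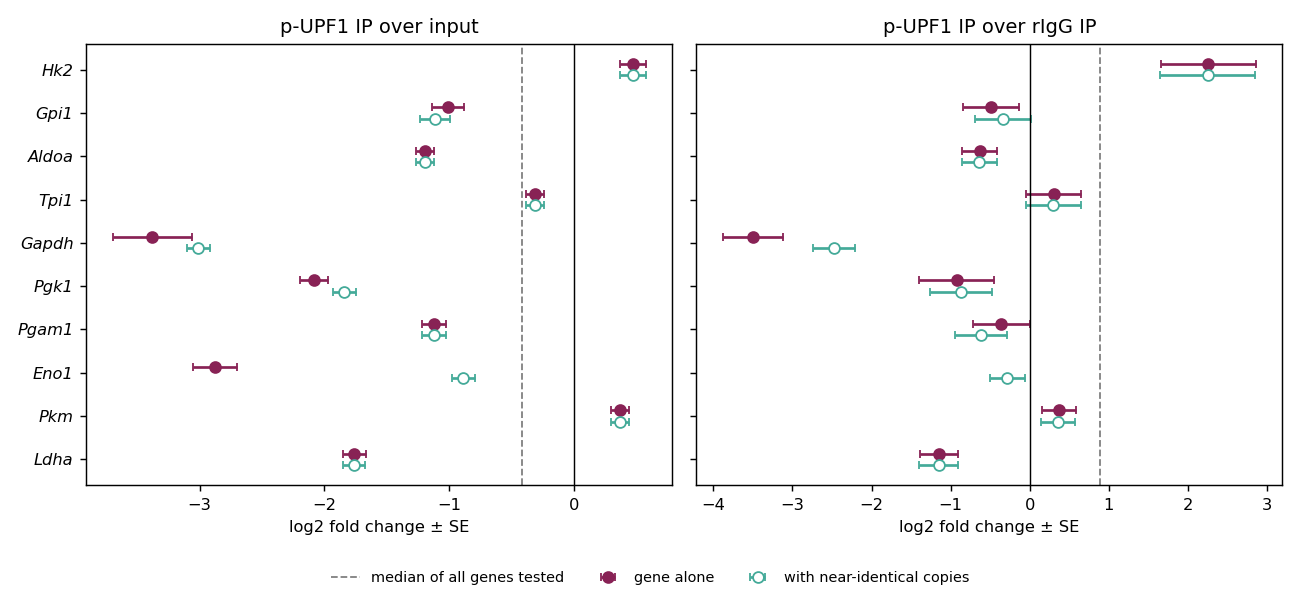
Log2 fold change with its SE (horizontal axes) of each glycolytic mRNA in the p-UPF1 IP over input (left) and over rIgG IP (right), from edgeR fits on 6 libraries each; filled points are the gene alone, open points the gene with its near-identical copies, and the dashed line is the median of all genes tested (-0.42 and 0.89). Gapdh is lowest and Hk2 highest on both sides, and the points of Eno1 differ most between both ways of counting; Eno1 alone over rIgG IP is left out because it had no count in the rIgG IP.

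The p-UPF1 IP was then compared with the rIgG IP, which measures what is recovered without the specific antibody. Of the 10 members, 1 was higher and 3 were lower (adjusted p under 0.05 over 12033 genes), against 17.9% of all genes called higher and 5.59% called lower. A log2 fold change under -1 was reached by 2 members, Gapdh and Ldha (5.34% of all genes), and above 1 by Hk2 (17.5% of all genes). The median log2 fold change was -0.43 for the members and 0.89 for all genes tested. The 3 p-UPF1 IP libraries were completely below the 3 rIgG IP libraries for 3 members (6.57% of all genes) and completely above them for 2, Hk2 and Eno1 (41.7% of all genes), of which Eno1 had no rIgG IP count to be compared with. With near-identical copies summed in, these numbers were 5 and 1. The same p-UPF1 IP libraries enter this comparison and the one with the input, so the values are not independent.

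Gapdh was lower in the p-UPF1 IP than in the rIgG IP, where it reached 146, 80.5 and 48.2 CPM, with a log2 fold change of -3.50 (SE 0.38, adjusted p = 1.55e-07) and no overlap of the libraries. With its copies the value was -2.47 (SE 0.27), and leaving out 1 library moved that of Gapdh alone between -4.15 (without p-UPF1 IP replicate 3) and -2.85 (without rIgG IP replicate 1). Ldha (88.0, 71.0 and 48.2 CPM in the rIgG IP) was lower by a log2 fold change of -1.15 (SE 0.25, adjusted p = 0.00116), and Aldoa (103.1, 71.0 and 72.2 CPM) by -0.63 (SE 0.22, adjusted p = 0.0407). The libraries of Ldha and Aldoa did not overlap either. Hk2 was called higher (adjusted p = 0.00722), but it rested on 2, 0 and 2 counts in the rIgG IP. The ratio of its summed counts, scaled by TMM, was 4.11 with a 95% counting interval of 1.59 to 15.1. Without rIgG IP replicate 2 no member was called higher, and without rIgG IP replicate 1 only 1 was called lower.

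Pkm, with log2 fold changes of 0.37 over input and 0.36 (SE 0.21, adjusted p = 0.230) over the rIgG IP, did not pass the test against the control IP, in which it was at 176, 114 and 80.3 CPM. Tpi1 was at 0.30 (SE 0.35), Pgam1 at -0.36 (SE 0.36), Gpi1 at -0.50 (SE 0.35) and Pgk1 at -0.92 (SE 0.47), none of them past the threshold. For these members a difference from the rIgG IP was not detectable at this depth. No fold is given for Eno1 alone, since its 1.96, 1.90 and 1.51 CPM in the p-UPF1 IP lie under the 4.09 CPM that the absence of counts in the rIgG IP allows. With its copies it was at -0.28 (SE 0.22, adjusted p = 0.368).

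In the rIgG IP over input, edgeR called 0 of the 10 members in either direction (0.584% of 16280 genes higher, 0.313% lower), and 3 members had an unadjusted p under 0.05. Those were Eno1, with no rIgG IP count, Hk2 at a log2 fold change of -1.53 (SE 0.60) and Pgk1 at -0.90 (SE 0.39). DESeq2 called 1 member higher, Pkm. The median log2 fold change was -0.36 for the members and -0.84 for all genes. The rIgG IP libraries were completely below the input for 4 members (48.3% of all genes) and completely above it for 0 (1.87%).

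The deposited counts are per transcript, and the rows of the glycolytic genes divide over annotated models of different types: protein-coding models, models flagged as NMD substrates and models that retain an intron. Fragments of at most 50 nt are shared by most models of a gene, so these values say which model the quantification chose and less which RNA was present. Over the 10 genes, protein-coding models held 91.6, 90.8 and 93.5% of the counts in the input, 80.2, 83.3 and 75% in the rIgG IP and 70.7, 69.7 and 72% in the p-UPF1 IP. NMD models held 2.90, 5.04 and 2.56% in the input, 14.4, 6.67 and 13.6% in the rIgG IP and 9.45, 12.01 and 10.6% in the p-UPF1 IP. Every library of both IPs was thus above every input library for NMD models, and the IPs overlapped each other (exact two-sided permutation p = 0.80). In all other protein-coding genes together the NMD share was instead lower in the IPs, at 54.4 to 58.7% in the input, 35.7 to 44.7% in the rIgG IP and 50.6 to 51.5% in the p-UPF1 IP. Such pooled shares weigh each gene by its counts and do not describe a typical gene. Tmem38b alone had 464280, 495485 and 559377 counts in the input libraries, against 12189, 13083 and 14113 for the 10 members together. Models with a retained intron held 4.36, 3.88 and 3.42% in the input, 3.50, 10 and 6.82% in the rIgG IP and 10.8, 18.3 and 17.2% in the p-UPF1 IP. Of 9 such tests, 7 gave the smallest p that 3 against 3 libraries allow, 0.10 (0.129 after Benjamini-Hochberg adjustment), so that none could pass 0.05. In all other protein-coding genes together, the retained-intron share was 2.34 to 2.68% in the input, 11.7 to 17.1% in the rIgG IP and 16.4 to 17.5% in the p-UPF1 IP.

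**Figure D3:**
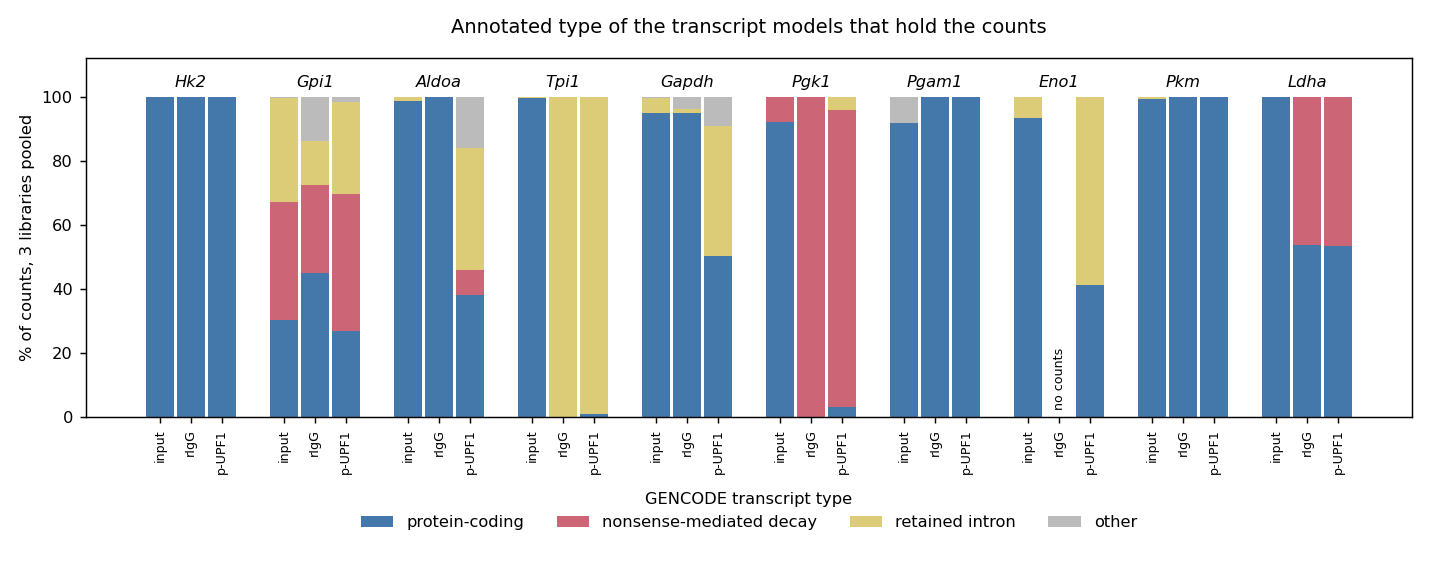
Share of each gene's counts (vertical axis, percent of the counts of 3 pooled libraries) held by transcript models of each annotated type, in the input, the rIgG IP and the p-UPF1 IP. Tpi1 moves to a retained-intron model and Pgk1 to an NMD model in both IPs, Ldha moves in part to an NMD model in both, and Hk2, Pgam1 and Pkm keep to protein-coding models.

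Tpi1 showed the sharpest division. The coding model Tpi1-205 had 612, 602 and 660 counts in the input, none in the rIgG IP and 3, 0 and 0 in the p-UPF1 IP. Tpi1-204, a model with a retained intron, had none in the input, 7, 4 and 3 in the rIgG IP and 120, 157 and 145 in the p-UPF1 IP. The counts of the gene had moved from one model to the other in both IPs while their sum in the p-UPF1 IP stood at a log2 fold change of only -0.31. Set against the level that no count in the input allows, Tpi1-204 was higher by at least 497-fold in the p-UPF1 IP (adjusted p = 3.82e-04) and by at least 429-fold in the rIgG IP, where the difference did not pass the test (adjusted p = 0.0558, with 0 of 36312 transcripts called in that comparison). Between the IPs it was not called either. The fit gave a log2 fold change over the rIgG IP of 0.85 (SE 0.24, adjusted p = 0.0709), and the ratio of summed counts, scaled by the TMM factors of genes, was 1.16 with a 95% counting interval of 0.683 to 2.14. Of the 1518 windows of 35 nt in Tpi1-204, 1402 also occur in Tpi1-205. The models differ by an intron of 84 bases (chr6:124812706-124812789) between exons 2 and 3 and by 138 bases that only Tpi1-205 has at its 5′ end. The 30 bases around the end of exon 2 (from chr6:124812804 leftwards, minus strand) show the point of divergence, with capitals for exon 3 in Tpi1-205 and for the intron in Tpi1-204.
Tpi1-205: cactggggaaatcagCCCTGGCATGATCAA
Tpi1-204: cactggggaaatcagGTGAGATGGAGGCAG

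In Pgk1 most IP counts lay on an NMD model. The coding model Pgk1-201 had 799, 609 and 958 counts in the input, none in the rIgG IP and 3, 0 and 2 in the p-UPF1 IP, a log2 fold change over input of -7.30 (SE 0.74, adjusted p = 0.00178). The NMD model Pgk1-203 had 0, 198 and 0 counts in the input, 9, 6 and 0 in the rIgG IP and 46, 68 and 48 in the p-UPF1 IP. The model was thus chosen in 1 of 3 input libraries as well, and its log2 fold change over input of 1.14 (SE 2.04, adjusted p = 0.693) was not called. Of its 1730 windows, 1658 also occur in Pgk1-201. The models differ at their ends, where Pgk1-201 has 63 bases (5′) and 38 bases (3′) that Pgk1-203 lacks, and at exon 8. Which of these differences the counts rest on was not tested. Pgk1-203 begins exon 8 earlier by 40 bases (chrX:106200117-106200156), which bring a stop codon into frame 485 bases upstream of the last exon junction. The sequence across exons 7 and 8 (chrX:106199750-106199761, then chrX:106200117-106200134 in Pgk1-203 and chrX:106200157-106200174 in Pgk1-201) is given with that stop codon in capitals.
Pgk1-203: aacaacatggagtataggggcTGAtcttca
Pgk1-201: aacaacatggagattggcacatctctgtat

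Ldha was divided between models in the IPs. The coding model Ldha-202 had 1061, 1376 and 1896 counts in the input, 0, 15 and 0 in the rIgG IP and 94, 64 and 133 in the p-UPF1 IP, a log2 fold change over input of -2.38 (SE 0.34, adjusted p = 0.00521). Ldha-214, also coding, had 913, 668 and 583 counts in the input and none in the p-UPF1 IP. The NMD model Ldha-209 rose from 0, 7 and 0 counts in the input to 67, 115 and 78 in the p-UPF1 IP, and it had 22, 0 and 4 in the rIgG IP. Between the IPs Ldha-209 was not called, with a log2 fold change over the rIgG IP of -0.53 (SE 0.89, adjusted p = 0.672). Ldha-209 lacks 189 bases at the 3′ end of Ldha-202 and 4 at its 5′ end, and whether its counts rest on these was not tested. Ldha-209 shares 1215 of its 1243 windows with Ldha-202 and also leaves out exon 6 of Ldha-202, 118 bases at chr7:46851877-46851994. The junction that results shifts the frame into a stop codon 110 bases upstream of the last exon junction, shown in capitals (chr7:46851044-46851058 joined to chr7:46853983-46853997 in Ldha-209 and to chr7:46851877-46851891 in Ldha-202).
Ldha-209: atggcgactccagtgtgcctacgaggTGAt
Ldha-202: atggcgactccagtgtgcctgtgtggagtg

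For the p-UPF1 IP over input, 47 of the 91 models could be tested, of which 6 had a log2 fold change above 1 and 16 one under -1 at an adjusted p under 0.05 (8.55% and 16.2% of all 42616 transcripts tested; 9.44% and 17.2% by the adjusted p alone, which calls the same numbers of members' models). The 6 higher models were 3 with a retained intron, 2 NMD models and 1 coding model, and 12 of the 16 lower models were coding. Aldoa-201, the main coding model of aldolase, had 975, 1326 and 1691 input counts against 66, 96 and 96 p-UPF1 IP counts (log2 fold change -2.46, SE 0.21, adjusted p = 9.77e-04). The NMD model Aldoa-213 had 18, 27 and 28 counts in the p-UPF1 IP and none in the other 6 libraries, which puts it at least 86.0-fold above the input. It shares 0 of its 765 windows with Aldoa-201, its exons lie upstream (chr7:126800790-126809108, minus strand, against chr7:126795234-126799254), and the annotation gives it another gene identifier, ENSMUSG00000114515.2, under the same symbol. Only Aldoa-213 and Aldoa-214 carry that identifier, and their counts are part of the sum for Aldoa. Against the rIgG IP no bound above 1 can be given for Aldoa-213, because its level lies under what no count in the rIgG IP allows. In that comparison 2 of 33 models tested were higher and 1 was lower (12.7% and 1.35% of all 23034 transcripts tested, 1.34% with a log2 fold change under -1). Aldoa-213 is 1 of the 2 higher models, and its call (adjusted p = 0.0491) is a comparison with no count. Without any one of the 3 p-UPF1 IP libraries both numbers fell to 0. Aldoa-201 was at least 3.31-fold higher than the rIgG IP, and Aldoa-210, which had 24, 10 and 6 counts in the rIgG IP and none in the p-UPF1 IP, was at least 347-fold lower. Both are coding models of Aldoa, and the gene as a whole was lower. The choice of model also varied between the p-UPF1 IP libraries, as models of Aldoa with a retained intron held 1.97, 48 and 55.2% of its counts there.

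Gapdh counts also moved between models within a group. Gapdh-202 had 1145, 0 and 1563 counts in the input and Gapdh-203 had 26, 2092 and 8, while Gapdh-201 had 0, 0 and 450 in the input, 56, 16 and 0 in the rIgG IP and 0, 0 and 74 in the p-UPF1 IP. Gapdh-202 and Gapdh-201 have 1238 of 1239 windows in common, so that a choice between them rests on almost no sequence. Of the 8 members with at least 10 counts in each group, 4 (Gpi1, Tpi1, Gapdh and Pgk1) had a different leading model in the p-UPF1 IP than in the input, as did 656 of 1838 other genes (35.7%). In 3 of these 4, Tpi1, Gapdh and Pgk1, the rIgG IP was led by the same model as the p-UPF1 IP, which held for 177 of the 656 other genes. Gpi1 was spread over coding, NMD and retained-intron models in every group, and the leading model of each type was lower in the p-UPF1 IP than in the input. These were Gpi1-201 (coding, log2 fold change -1.63, SE 0.30), Gpi1-207 (NMD, -1.72, SE 0.18) and Gpi1-211 (retained intron, -1.41, SE 0.16).

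Hk2 stayed with 1 model. Hk2-201 held 99.8% of its counts in the input and 100% in both IPs. Fitted among transcripts, nearly the same counts gave a log2 fold change over input of 0.18 (SE 0.13, adjusted p = 0.324) and were not called, nor were they called over the rIgG IP (adjusted p = 0.0688), so that the call for Hk2 holds in the fit of summed counts alone. The transcript fit over input had its own TMM factors, 0.794 for input replicate 1 and 1.24 for p-UPF1 IP replicate 1. Among genes these were 0.884 and 1.11, so fold changes of transcripts and of genes have different zero points. Pgam1 was likewise held by Pgam1-201, with 91.6% of the input counts and 100% of those in the IPs.

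Pkm makes 2 main products by the choice between neighbouring exons of 167 bases, M1 (chr9:59675029-59675195) and M2 (chr9:59675568-59675734), of which M2 is known from proliferating and tumour cells. These exons are related, and their first 30 bases are given with capitals at the positions where they differ.
Pkm-202, M1: atAgcTcgGgaggcTgaggcAgccatGtTc
Pkm-201, M2: atTgcCcgAgaggcAgaggcTgccatCtAc

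Of the Pkm counts on models that hold either exon, M1 models took 19.5, 36.0 and 14.8% in the input libraries (456, 802 and 377 counts, against 1882, 1423 and 2165 for M2). In the p-UPF1 IP they took 57.7, 39.7 and 31.6%, and in the rIgG IP 36.2, 66.7 and 0%. The last of these rests on 10 counts, with a 95% Wilson interval up to 27.8%. The mean was 43.0 ± 13.4% in the p-UPF1 IP and 23.5 ± 11.1% in the input (SD, n = 3 each). The groups overlapped, and the difference did not pass an exact two-sided permutation test (p = 0.20). With 3 against 3 libraries the p of that test cannot go below 0.10. These counts are of whole models, Pkm-202 for M1 and Pkm-201 for M2. Pkm-201 also has 205 bases at its start and 186 at its end that Pkm-202 lacks. Whether the counts rest on the exons or on these ends was not tested.

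The members were also described by the sequence of their main coding model. Annotated 3′ UTRs ranged from 179 nt in Gapdh to 2285 nt in Hk2 with a median of 513.5 nt, against a median of 945 nt over 12404 genes. Across the 10 members, Spearman's rho between 3′ UTR length and the log2 fold change over input was 0.82, and over all 12404 genes it was 0.12. For the whole transcript length rho was 0.60 in the members and 0.21 over all genes, and for GC content it was -0.08 and 0.41. When copies were summed in, rho in the members was 0.66 for the 3′ UTR, 0.72 for the whole length and 0.20 for GC content, so that the 3′ UTR no longer gave the highest value. These are correlations across genes, which share libraries and depth, and they stand as a description without a test. In every main coding model the stop codon lay in the last exon.

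**Figure D4:**
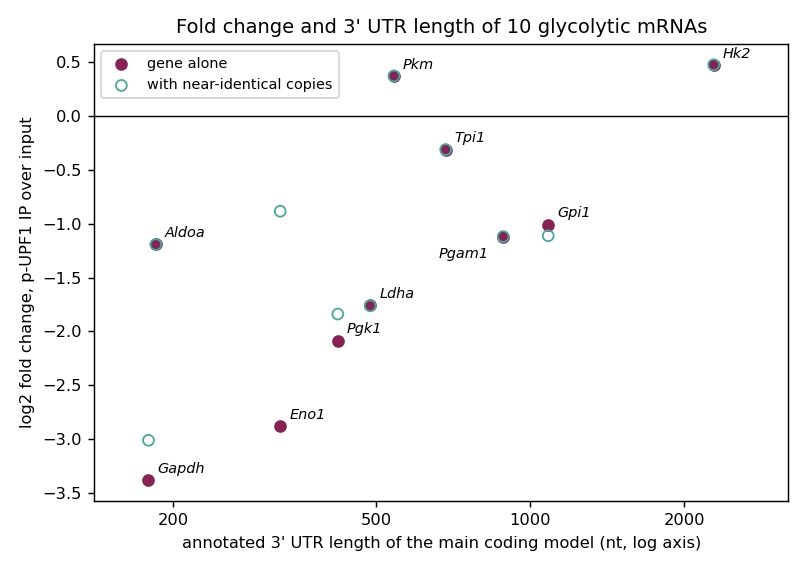
Log2 fold change in the p-UPF1 IP over input (vertical axis) against the annotated 3′ UTR length of the main coding model (horizontal axis, nt, log scale) for the 10 glycolytic mRNAs; filled points are the gene alone, open points the gene with its copies. Hk2, with the longest 3′ UTR (2285 nt), is highest and Gapdh, with the shortest (179 nt), is lowest.

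Among 146 other genes with at least 10 counts in every library, those whose profile over the 9 libraries was nearest to the median profile of the members were Prkar1a (Euclidean distance 0.345 in centred log2 CPM), Eif4g2 (0.452), Tmem38b (0.524), Ret (0.544) and Hspa8 (0.554). Their log2 fold changes over input ran from -1.32 for Eif4g2 to -0.74 for Ret.

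Other genes of glucose metabolism were described from lists of known enzymes and transporters. Of 21 further glycolytic isoenzymes 12 could be tested, of which 5 were higher and 5 lower in the p-UPF1 IP than in the input, with a median log2 fold change of 0.12. Over all genes tested, 26.3% were called higher and 35.7% lower. Hk1, the other abundant hexokinase, was higher at 0.29 (SE 0.09, adjusted p = 0.0205), and Pfkp, a phosphofructokinase, was at 0.01 (SE 0.08) and not called. Eno1b, among the 5 called lower, was at -2.22 (SE 0.10). It shares 74.5% of the windows of Eno1, and the sum of Eno1 and its copies, Eno1b included, was at -0.88 (SE 0.09). Pgam2 was called lower at -3.004 (SE 0.97), from 8, 9 and 15 input counts and 0, 1 and 0 p-UPF1 IP counts.

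Of 19 genes of glucose and lactate transport and of glycolytic control 15 were tested, and 7 were higher and 4 lower (median -0.13). The shares over all genes tested were 26.3% higher and 35.7% lower. The glucose transporter Slc2a3 was higher at 1.18 (SE 0.07), with 63.9 ± 3.35 CPM in the input against 148 ± 6.80 CPM in the p-UPF1 IP (SD, n = 3 each). Pfkfb4, which sets the level of the phosphofructokinase activator fructose-2,6-bisphosphate, rose most of this list, by 2.59 (SE 0.19). Bsg, the chaperone of the lactate transporters, was lower at -2.50 (SE 0.08), and the lactate transporter Slc16a1 was lower at -0.31 (SE 0.08, adjusted p = 0.00895). In the pentose phosphate pathway 7 of 9 genes were tested, 3 higher and 3 lower (median -0.40), beside the same shares over all genes. Pgd was higher at 0.44 (SE 0.09), and Taldo1 (-2.003, SE 0.15), G6pdx (-1.15, SE 0.16) and Tkt (-0.57, SE 0.11) were lower.

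Most of the 27 genes listed for pyruvate dehydrogenase and the TCA cycle were lower. Of these 27 genes, all tested, 23 were lower and 2 higher, with a median log2 fold change of -1.41. Over all genes tested, 35.7% were lower and 26.3% higher. Idh3a (-2.93, SE 0.22), Idh3g (-2.61, SE 0.21) and Sdhb (-2.43, SE 0.10) were lower, as was Cs, citrate synthase (-1.20, SE 0.08). The 27 genes had a median of -0.44 over the rIgG IP, under the median of all genes given above. There 4 were lower and 2 higher, beside 5.59% and 17.9% of all genes tested.

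**Figure D5:**
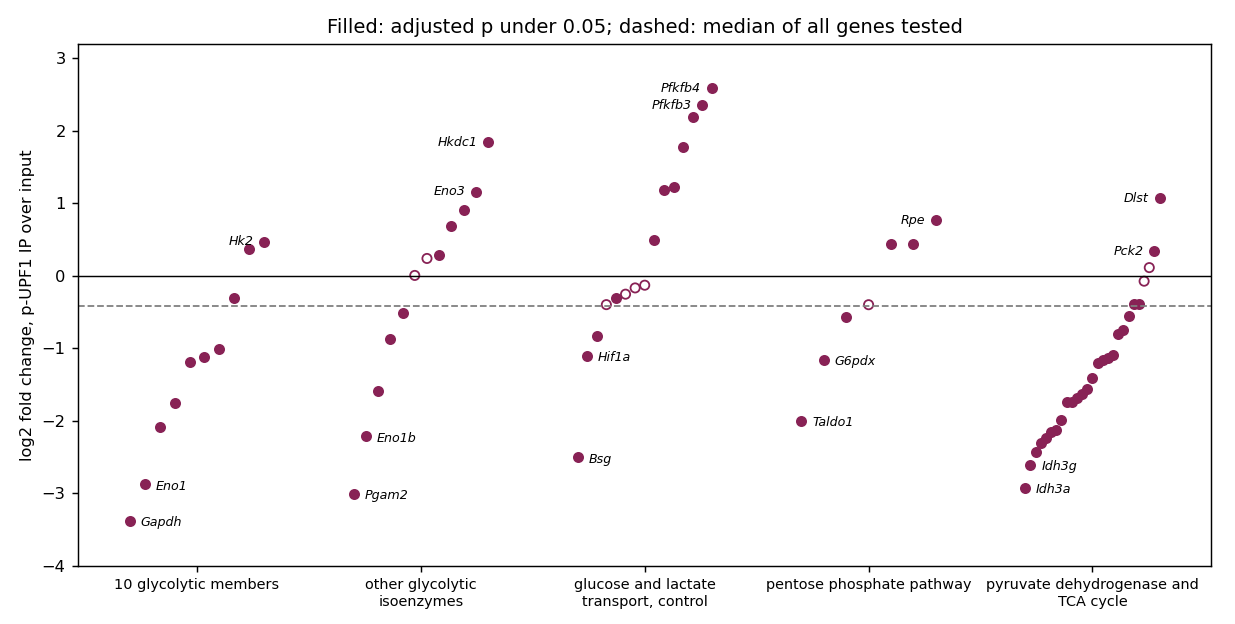
Log2 fold change in the p-UPF1 IP over input (vertical axis) of each gene tested among the 10 glycolytic mRNAs and 4 lists of related genes, sorted within each list; filled points have an adjusted p under 0.05 and the dashed line is the median of all genes tested (-0.42). Most genes of pyruvate dehydrogenase and the TCA cycle lie below the dashed line, and control genes such as Pfkfb4 lie highest.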

How the data were processed

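RIP-seq of okadaic acid-treated N2A cells gave 9 libraries. The authors trimmed reads with fastp, mapped them to GRCm38 with STAR 2.7.0f and quantified transcripts with Salmon 0.13.1; they deposited estimated counts per transcript, as whole numbers that are not normalized. How they were rounded is not given in the sources used here. Replicates were not pooled, and column names gave the library.

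Counts were summed per gene symbol. Each pair of groups was fitted with edgeR 4.0.16 in R 4.3.3 (TMM, estimated dispersions, quasi-likelihood test, two-sided) on its 6 libraries, for genes, or transcripts, whose counts summed to 10 or more. Adjusted p-values are Benjamini-Hochberg over all features tested. The SE is the absolute log2 fold change divided by the square root of F. Displayed CPM used TMM factors over 9 libraries. A fold against a group without counts is a bound against 3 counts over the group, and ratios of few counts carry exact 95% counting intervals. Transcript types, exons and sequences came from GENCODE M21 (GRCm38), an earlier release than the study's, to which 139921 of 140658 transcripts and all 91 of the members matched. Near-identical copies were genes holding at least 10% of the 35-nt windows of a member's most-counted transcript. The name thus also covers genes that share only part of the sequence, for Gapdh from 91.7% of the windows (Gm7336) down to 10.0% (Gm12969).

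The members and lists were chosen with earlier results of these data known. The text names all members, their most-counted transcripts and at most 2 called transcripts in each direction, and from each pathway list at most the 3 genes highest in the input and the 2 with the largest called change; other genes and transcripts were named after their values were seen. The alternatives tried were summed copies, DESeq2 1.42.0, scaling by RLE or library totals, filterByExpr or no filter, a fit of all 9 libraries, a replicate block, and leaving out the 10 most-counted features or each library in turn. Tested on simulated data, the gene fit recovered 90% of changes of log2 2 in the p-UPF1 IP over input (16919 genes) and 47% over the rIgG IP (12033 genes), with 8.12% and 13.5% of calls false. The transcript fit recovered 14% of changes of log2 4 over input (42616 transcripts). Each simulation changed 100 features by log2 2 and 100 by log2 4, drawn from the better counted, and left all others unchanged. In the data far more genes were called over input (26.3% higher and 35.7% lower), so these rates do not carry over to the calls above. RNA-seq of UPF1-depleted cells is not analysed here, and some genes of the lists are not reported here by name.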

Additional observations from a re-analysis of the deposited data

How the results depend on the processing

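For the p-UPF1 IP over input, 149 of 150 recomputed member values kept their direction and their side of the adjusted p threshold of 0.05. The number of members under a log2 fold change of -1 did change with library totals and with summed copies, as given above. The exception to the kept direction and call was Tpi1, at 0.094 with library totals. The rIgG IP libraries, with at most 474491 counts, set the limits elsewhere. Over the rIgG IP, the members lower numbered 1 with the replicate block, against 3, and 1 to 4 when a library was left out (1 without rIgG IP replicate 1); the members higher numbered 0 to 1 (0 without rIgG IP replicate 2). Values that turned were Eno1 with its copies (-0.28), Gpi1 without rIgG IP replicate 1 (0.21, lowest -0.80 without another library) and Tpi1 with filterByExpr (-0.0503). In the rIgG IP over input, members lower numbered 1 with filterByExpr, no filter or all 9 libraries, and 0 to 1 when a library was left out (1 without input replicate 2 or 3); DESeq2 called 1 higher. Gapdh turned without rIgG IP replicate 1 (-0.28, highest 0.59 without another library) and with its copies (-0.32), Pkm without rIgG IP replicate 1 (-0.18, highest 0.37), and Gpi1 with DESeq2 (0.0397) and RLE factors (0.0195).

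Transcript calls moved more. Over input, the replicate block called 1 model higher, against 6, and all 9 libraries in one fit called 10 lower, against 16. Over the rIgG IP, the models higher (2) were 1 with RLE factors, library totals or all 9 libraries, 0 with the replicate block and 0 to 3 when a library was left out; those lower (1) were 3 with DESeq2 or all 9 libraries, 5 with no filter, 4 with the replicate block and 0 to 3 when a library was left out. Without any one of the 3 p-UPF1 IP libraries both counts were 0. Isoenzymes lower in the p-UPF1 IP (5) were 3 with DESeq2 and 3 to 4 when a library was left out (3 without input replicate 3 or p-UPF1 IP replicate 1). Same-numbered libraries did not deviate together (mean correlation 0.0278, -0.0200 and -0.0114 in the p-UPF1 IP over input, over rIgG IP and rIgG IP over input). Whether they came from one culture is not given by the labels. These correlations cannot settle it, since a shared culture need not leave a shared deviation. The causes of these changes were not tested.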
